A study of Homo sapiens with 26 samples.

Results

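Notch receptors, Notch ligands and direct Notch targets were examined by mRNA-seq in 3 established cell lines of human esophageal squamous cell carcinoma (ESCC). The 9 genes were the receptors NOTCH1, NOTCH2 and NOTCH3, the ligands JAG1, JAG2, DLL1 and DNER, and the targets HES1 and HEY1. They were taken by symbol and role in the pathway, with earlier results of these data known, and all 9 were present among the 26485 gene symbols of each of 5 tables.

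Notch receptors are transmembrane proteins that are activated by ligands on a neighbouring cell. Ligand binding exposes the receptor to an ADAM protease and then to the gamma-secretase complex, and the released intracellular domain joins the DNA-binding protein RBPJ and a Mastermind coactivator to switch on target genes, above all the HES and HEY transcriptional repressors. In stratified squamous epithelia such as that of the esophagus, Notch signalling accompanies the exit of cells from the basal layer, which is marked by p63, and NOTCH1 is often mutated in ESCC.

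The study asked which transcripts of ESCC cells depend on BRDT, a germ-cell member of the BET family of bromodomain proteins, and on the squamous transcription factor p63, encoded by TP63. KYSE180 and TE6 cells express BRDT, whereas KYSE150 cells were used as a line that lacks it. For knockdown, cells received an siRNA (a short RNA that depletes its target transcript) and were harvested 48 h later. The study used several siRNAs against BRDT and against TP63, and the labels do not say which one each library received, so whether the lines received the same siRNA is not known here. For overexpression (BRDT-OE), KYSE150 cells received a BRDT plasmid and were compared with cells that received the control vector.

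KYSE180 cells treated with a non-targeting control siRNA (siCont) or an siRNA against BRDT (siBRDT) gave 3 libraries each. KYSE180 cells treated with siCont or an siRNA against TP63 (siTP63) in a separate experiment gave 2 libraries each. TE6 cells gave 2 siCont, 2 siBRDT and 2 siTP63 libraries in 1 table, so that both TE6 knockdowns share the same 2 controls. KYSE150 cells gave 2 siCont and 2 siTP63 libraries, and in another experiment 3 control and 3 BRDT-OE libraries. siBRDT is therefore known from 2 lines, siTP63 from 3 and BRDT-OE from 1. The labels do not say whether libraries of a group came from separate cultures, so that p-values measure the spread between these libraries, which may be technical.

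The 250 bases before the start site of HES1 and of NOTCH3 are printed here from RefSeq (build GRCh38.p14). Of the 6 genes with an entry in the promoter table, these had the most calls, 4 of 6 comparisons each, and HES1 was called in opposite directions in KYSE180 and TE6. Both are given 5′ to 3′ on the strand of the gene, HES1 at chr3:194135898-194136147 (plus strand) and NOTCH3 at chr19:15200996-15201245 (minus strand). Capitals mark matches to the RBPJ motif GTGGGAA or its core TGGGAA, and to the N box CACNAG that HES proteins bind, each searched on both strands.
HES1 upstream: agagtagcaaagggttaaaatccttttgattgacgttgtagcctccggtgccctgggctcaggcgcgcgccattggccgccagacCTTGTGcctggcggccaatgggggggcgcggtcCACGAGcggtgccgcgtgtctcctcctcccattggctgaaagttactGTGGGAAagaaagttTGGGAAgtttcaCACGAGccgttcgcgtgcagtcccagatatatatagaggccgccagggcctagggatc
NOTCH3 upstream: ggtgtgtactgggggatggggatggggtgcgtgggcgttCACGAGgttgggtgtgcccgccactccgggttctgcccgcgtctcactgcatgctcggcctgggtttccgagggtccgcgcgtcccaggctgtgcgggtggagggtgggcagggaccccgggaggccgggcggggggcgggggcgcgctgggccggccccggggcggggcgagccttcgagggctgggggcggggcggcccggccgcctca

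The HES1 window held 1 match to GTGGGAA, starting 85 bases before the start site. It held 2 matches to the core TGGGAA, of which 1 lies inside the longer match and the other starts 70 bases before the start site. It also held 3 N boxes, 2 on the plus and 1 on the minus strand. The NOTCH3 window held no RBPJ match and 1 N box. Among 35116 promoter windows of the same length, 5.4% held GTGGGAA, 20.8% held TGGGAA and 32.0% held CACNAG at least 1 time. TGGGAA was held 2 or more times by 2.9% of the windows, and CACNAG 3 or more times by 0.91%. NOTCH1, NOTCH2, JAG1 and JAG2 had no match to any of the motifs in their windows. These matches describe letters and not bound sites.

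Across the 26 libraries, 7582089 to 19372441 reads were recovered per library, and 3 reads, the limit that a count of 0 allows, correspond to 0.155 to 0.396 RPM (each library brought to the same total). BRDT was lower in siBRDT than in siCont libraries (KYSE180, log2 fold change -2.75 ± 0.12, SE; TE6, -2.23 ± 0.16), and it rose from 6.58 to 16.0 in control KYSE150 cells to between 15871 and 17542 in BRDT-OE cells on the normalised scale. In the KYSE150 TP63 experiment, BRDT was 60.9 (41 reads) and 8.25 in the siCont and 0 and 10.6 in the siTP63 libraries, so that the first siCont library stood above the other KYSE150 libraries without BRDT-OE. TP63 fell by 1.70 (KYSE180) and 4.45 (TE6) on the log2 scale after siTP63. In KYSE150, TP63 was 695 and 729 in the siCont and 170 and 114 in the siTP63 libraries, yet the adjusted p of 0.0818 did not pass. TP63 itself also fell after siBRDT, by 0.58 in KYSE180 and 1.15 in TE6. Of 12 squamous markers, all exceeded a mean of 1 RPM in KYSE180 and TE6 and 11 did in KYSE150. Their summed level was lower after siTP63 (2679 to 2872 against 8839 to 9097 RPM in TE6) and after siBRDT (5896 to 5976 RPM in TE6, and 6967 to 7198 against 10485 to 11082 RPM in KYSE180). In absolute RPM, the largest falls were those of KRT6A in TE6 (mean 2976 RPM in siCont, 465 in siTP63, 1132 in siBRDT) and KRT5 in KYSE180 siBRDT (4777 to 2493 RPM). As a ratio, KRT14 fell further in TE6 siTP63 cells (285 to 7.33 RPM). KRT14 also fell in KYSE180 siTP63 cells (1990 to 424 RPM). Some markers were higher, CDH1 in TE6 siTP63, KRT17, SFN and EPCAM in TE6 siBRDT, and SFN, EPCAM and CDH1 in KYSE180 siBRDT. In KYSE180 siTP63 cells, SOX2, PERP, EPCAM and CDH1 were higher. The other markers were lower in these comparisons. Fibroblast, endothelial and blood marker lists summed to 0.0766 to 120 RPM. DCN was at 0 in 7 of the 11 groups, whereas COL1A1 was found in every group. Its mean ran from 3.95 RPM in KYSE150 siCont to 89.3 RPM in KYSE180 siBRDT cells. HBB had means of 44.6 RPM (siCont) and 40.2 RPM (siBRDT) in the KYSE180 BRDT experiment. In the KYSE180 TP63 experiment HBB was at 0.0454 RPM in siCont and at 0 in siTP63 cells. In KYSE180 the summed endothelial list was higher after siTP63 (11.3 to 12.1 RPM) than in its controls (1.43 to 2.09 RPM), and so was the fibroblast list (68.7 to 80.01 against 36.1 to 39.7 RPM). In TE6 (7.90 to 9.76 against 4.52 to 5.90 RPM) and in KYSE150 (5.52 to 11.4 against 0.796 to 1.73 RPM) the endothelial list was also higher after siTP63. A single gene carried most of each endothelial sum, VWF in KYSE180 (mean 1.62 in siCont and 11.4 RPM in siTP63) and TE6 (4.94 and 8.80 RPM) and CDH5 in KYSE150 (0.801 and 7.90 RPM), while KDR was at 0 in KYSE180 siTP63 cells and PECAM1 in TE6 siTP63 cells. These marker levels are in RPM, whereas the tests below used the normalised values. The part of these shifts in the Notch results was not tested. In these bulk samples, fewer cells that express a gene and less RNA per cell cannot be told apart.

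Transcript levels in control cells were first compared between the genes per length, as RPKM (RPM divided by transcript length in kilobases). JAG2 and HES1 were the 2 highest of the 9 transcripts in KYSE180 and KYSE150 controls of every experiment, whereas HEY1 and JAG2 led in TE6. In the siCont cells of the KYSE180 BRDT experiment, JAG2 had 58.0 ± 2.05 RPKM (SD, n = 3), HES1 42.5 ± 1.23 and JAG1 28.8 ± 2.19. These were followed by NOTCH2 (17.4 ± 2.08) and NOTCH3 (17.0 ± 1.35), whose libraries overlapped, and then by NOTCH1, HEY1 and DLL1 (13.0, 7.92 and 6.13 RPKM). DNER, with 0.0321 RPKM, was at or under 2 reads in each of those libraries.

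In TE6 siCont cells, HEY1 reached 40.4 ± 0.0405 RPKM (n = 2) and JAG2 38.4 ± 2.28, with NOTCH3 at 18.4 ± 1.45. HES1 (10.9), JAG1 (9.18), NOTCH1 (5.34), DLL1 (4.98) and NOTCH2 (2.78) followed, and of these neighbours only NOTCH1 and DLL1 overlapped. HEY1, a target gene, thus headed the order in TE6, while it was the lowest of the 9 in both sets of KYSE150 controls, with 0.212 ± 0.0480 RPKM (n = 2) and 0.561 ± 0.0132 (n = 3). Conversely, DNER was near the detection limit in KYSE180 and TE6 controls (0.0321 to 0.0831 RPKM) and measurable in KYSE150 controls (0.780 ± 0.0922 and 1.10 ± 0.583 RPKM). In the KYSE150 controls of the BRDT-OE experiment, HES1 (28.8 ± 2.59) lay above JAG2 (15.4 ± 1.37), JAG1 (13.5 ± 2.91) and NOTCH2 (10.2 ± 3.26), and the last 3 overlapped from neighbour to neighbour.

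Controls of the same line differed between experiments, which bears on all level comparisons. NOTCH2 was 8.08-fold and JAG1 6.17-fold higher (RPM) in the KYSE180 controls of the BRDT experiment than in those of the TP63 experiment, while JAG2 and HES1 differed 1.18-fold and 1.08-fold. The manipulated genes were also higher there, TP63 5.37-fold (mean 892 against 166 RPM) and BRDT 1.98-fold (95.9 against 48.5 RPM). The KYSE180 siBRDT and siTP63 comparisons thus started from unlike controls. In KYSE150, NOTCH2 was 5.13-fold and TP63 2.28-fold higher in the controls of the BRDT-OE experiment than in those of the TP63 experiment. Over all genes, 43.8% (KYSE180) and 35.6% (KYSE150) differed more than 2-fold between the control sets. Treated cells were therefore only compared with the controls of their own table.

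**Figure D1:**
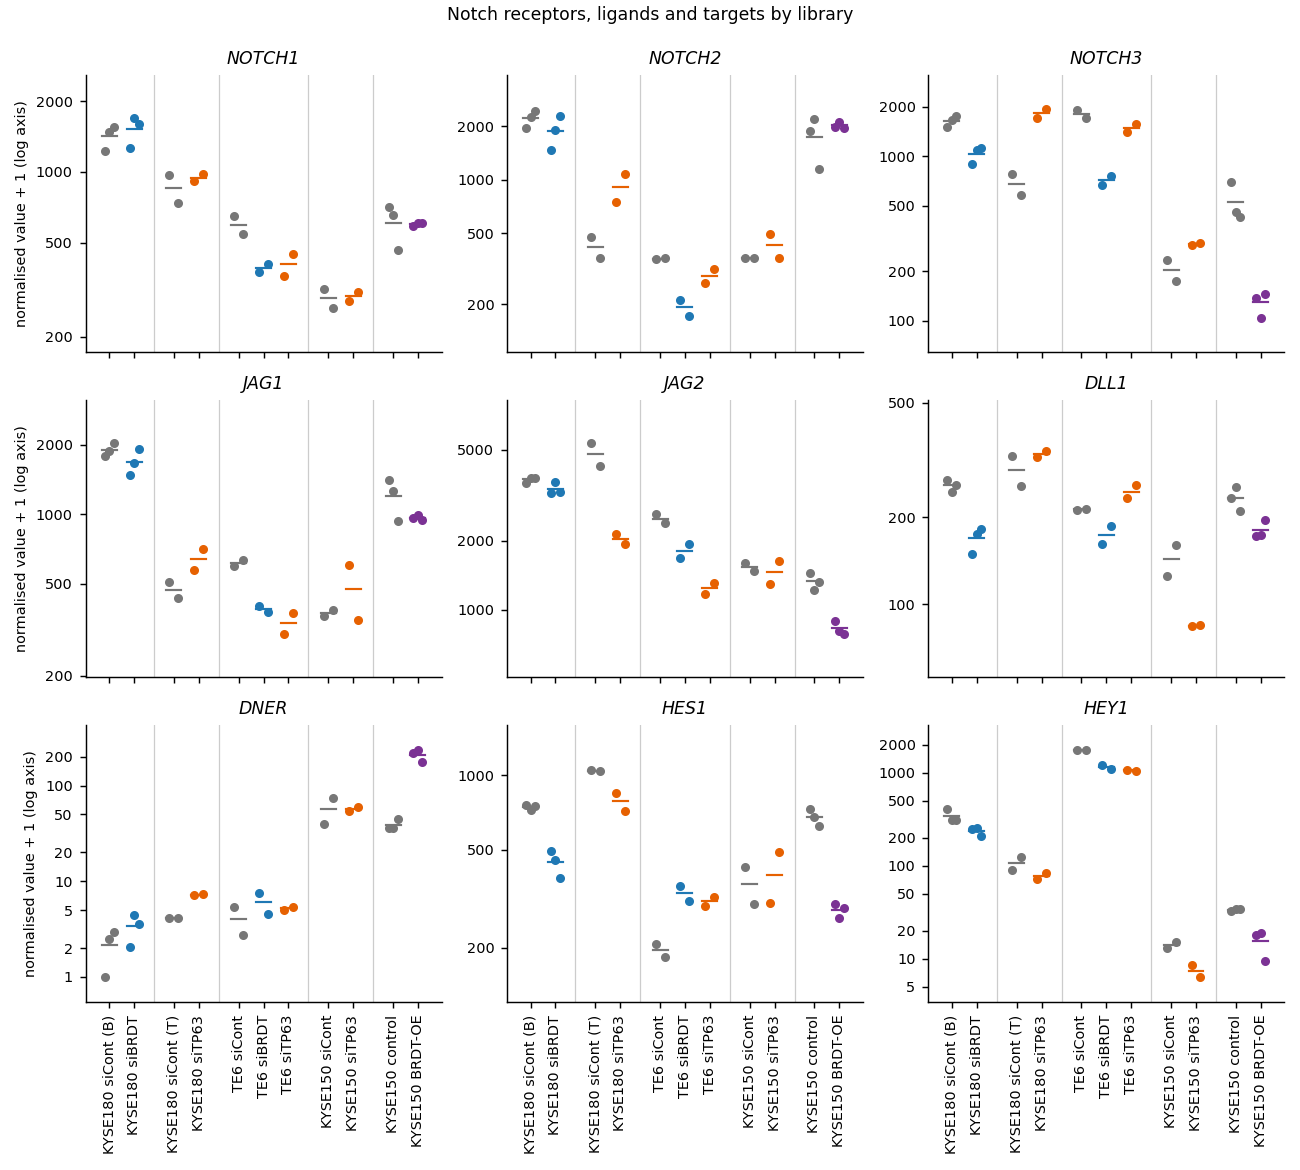
Normalised value plus 1 (log axis) of each of the 9 genes in all 26 libraries; points are libraries and bars are group means. Grey, controls; blue, siBRDT; orange, siTP63; purple, BRDT-OE; (B) and (T) mark the KYSE180 controls of the BRDT and of the TP63 experiment, and thin lines separate tables. HES1 lay below its controls after siBRDT in KYSE180 and above them in TE6, and NOTCH3 lay below its controls in BRDT-OE cells (means 128 against 527).

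Differential expression was tested with limma on the log2 scale for every gene with a mean normalised value of at least 10, and a gene counted as called where the adjusted p was under 0.05 and the log2 fold change reached 0.5 in size. In KYSE180 siBRDT cells, 4 of 8 tested Notch genes fell and 0 rose, where 30.3% of all 13589 genes were called (15.8% down and 14.5% up). Their median log2 fold change was -0.39, against -0.01 over all genes. In TE6 siBRDT cells, 5 of 8 fell and 1 rose, with 33.7% of all genes called (18.1% down and 15.6% up). The median was -0.61, against -0.04 over all genes. In KYSE180 siTP63 cells, 1 of 8 fell and 2 rose, where 49.3% of all genes were called (25.7% down and 23.6% up), and the median was 0.18 against 0.00. In TE6 siTP63 cells, 4 of 8 fell and 1 rose, with 38.9% of all genes called (20.6% down and 18.3% up), and the median was -0.44 against -0.01.

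In KYSE150 siTP63 cells, 0 of 8 tested Notch genes were called by limma, and 0.0% of all genes were. At an unadjusted p under 0.05, 1 of the 8 passed, as did 17.8% of all genes, and edgeR and DESeq2 on the recovered reads also called 0 of the 8. In BRDT-OE cells, 4 of 9 fell and 1 rose, with 26.5% of all genes called (16.0% down and 10.5% up), and the median was -0.36 against 0.02. The called share of the tested Notch genes was thus above that of all genes in 4 comparisons and below it in KYSE180 siTP63 cells, a description over 8 or 9 genes without a test. DNER had a mean under 10 in KYSE180 and TE6 and was not tested there, and neither was HEY1 in the KYSE150 TP63 experiment.

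**Figure D2:**
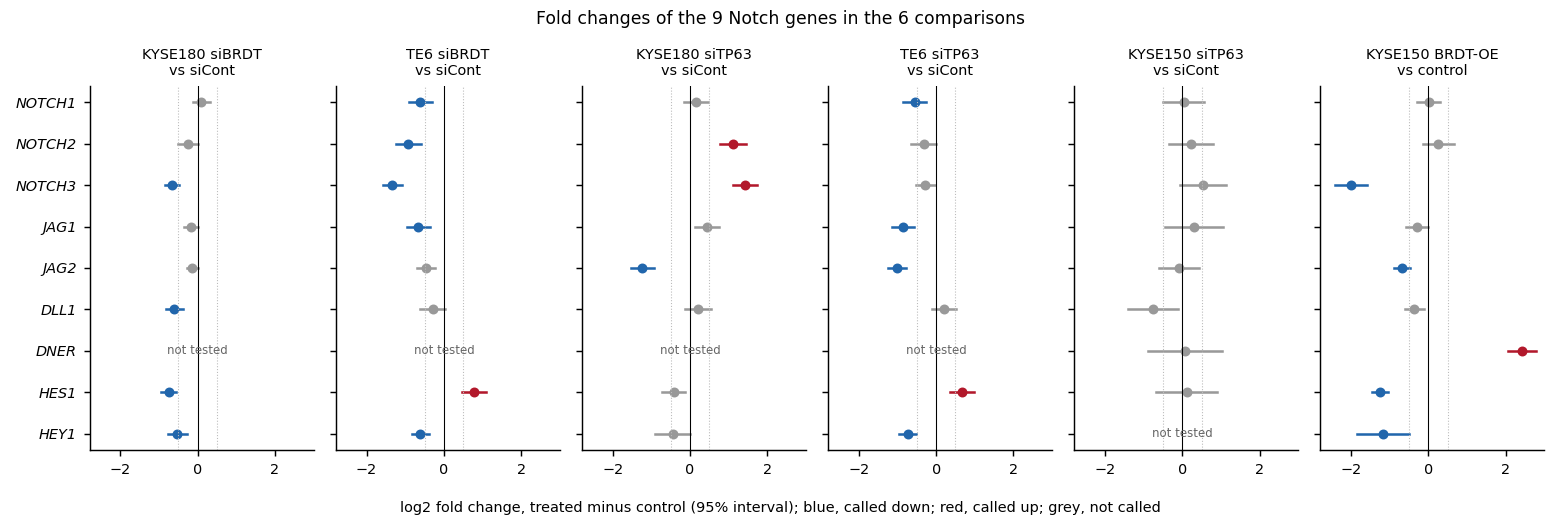
Log2 fold change (x axis, treated minus control) with 95% interval of the 9 genes in the 6 comparisons. Blue and red mark genes called down and up, grey genes that were not called, and dotted lines the fold-change limit of 0.5. All 3 receptors are blue in TE6 siBRDT, and HES1 is blue in KYSE180 siBRDT but red in both TE6 comparisons.

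NOTCH3 (chr19:15159038-15200995, minus strand, hg38), a receptor best known from vascular smooth muscle and also made by squamous cells, was the receptor called most often. In KYSE180, normalised NOTCH3 values were 1508, 1651 and 1746 in siCont and 897, 1086 and 1119 in siBRDT libraries. All siBRDT libraries lay below all controls. The log2 fold change was -0.66 ± 0.09 (SE; adjusted p = 9.96e-06). In TE6, NOTCH3 values were 1907 and 1694 in siCont, 667 and 761 in siBRDT, and 1396 and 1574 in siTP63 libraries. The siBRDT libraries were the lowest, and both siTP63 libraries were also below the controls, although by less. NOTCH3 fell by 1.33 ± 0.11 on the log2 scale after siBRDT (adjusted p = 5.03e-06), while the siTP63 value of -0.28 ± 0.11 was not called (adjusted p = 0.0601).

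In KYSE180 siTP63 cells the NOTCH3 change had the opposite sign. The values were 779 and 582 in siCont and 1707 and 1934 in siTP63 libraries. Both siTP63 libraries lay far above both controls. The log2 fold change of NOTCH3 was 1.43 ± 0.15 (adjusted p = 1.81e-08). In KYSE150 BRDT-OE cells, NOTCH3 was 697, 458 and 424 in control and 137, 103 and 145 in BRDT-OE libraries. The groups did not overlap, and the first control stood above the other two. NOTCH3 fell by 2.01 ± 0.19 on the log2 scale (adjusted p = 2.25e-05), so that BRDT knockdown in KYSE180 and TE6 and BRDT overexpression in KYSE150 both went with lower NOTCH3. In KYSE150 siTP63 cells the value was 0.54 ± 0.24 (limma, adjusted p = 0.315, 95% interval -0.06 to 1.13). It passed with the replicate numbers crossed as a block (limma, adjusted p = 0.00360). The labels do not give this pairing, and it was added after the data were seen, so that no conclusion is drawn from it.

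NOTCH2 (chr1:119911553-120100779, minus strand), a widely expressed receptor, was called in 2 comparisons with opposite signs. In TE6, NOTCH2 values were 358 and 360 in siCont and 210 and 171 in siBRDT libraries. The controls were nearly equal and both siBRDT libraries were below them. On the log2 scale the change was -0.92 ± 0.15 (adjusted p = 3.97e-04). In KYSE180, NOTCH2 values were 475 and 361 in siCont and 749 and 1075 in siTP63 libraries. The siTP63 libraries were both above the controls but also differed from each other. NOTCH2 rose by 1.11 ± 0.17 (adjusted p = 4.42e-06). The values after siBRDT in KYSE180 (-0.25 ± 0.12), after siTP63 in TE6 (-0.32 ± 0.15) and in KYSE150 (0.22 ± 0.23), and in BRDT-OE cells (0.26 ± 0.18) were not called. The tables also hold the near-identical paralog NOTCH2NL, and how reads shared with it were counted is not given in the sources used here, so that NOTCH2 values are uncertain to that extent.

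NOTCH1 (chr9:136494433-136546048, minus strand), the receptor often mutated in ESCC, was called only in TE6. Normalised values were 647 and 542 in siCont, 374 and 404 in siBRDT, and 362 and 447 in siTP63 libraries. All 4 knockdown libraries lay below both controls, while the knockdowns overlapped with each other. The log2 fold changes were -0.61 ± 0.14 after siBRDT (adjusted p = 4.01e-03) and -0.56 ± 0.14 after siTP63 (adjusted p = 5.63e-03). Without the first siCont library neither value passed (-0.48, adjusted p = 0.0746, and -0.43, adjusted p = 0.0925), and without the first siTP63 library the second did not (-0.41, adjusted p = 0.107). With equal upper quartiles the siTP63 value was -0.47, under the fold-change limit. In KYSE180 the values were 0.09 ± 0.10 after siBRDT and 0.16 ± 0.15 after siTP63. The latter depends on the scale, since in RPM both siTP63 libraries (75.4 and 85.4) lay above both of their controls (56.0 and 44.6). That RPM difference was not tested. In BRDT-OE cells the value was 0.00 ± 0.14, with a 95% interval of -0.30 to 0.31.

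The composition of the receptor transcripts was then described by line and condition. Per length, NOTCH3 made up 69.3% ± 0.06 (SD, n = 2) of the receptor reads in TE6 siCont cells, 59.4% ± 2.40 after siBRDT and 72.2% ± 1.07 after siTP63. In KYSE180, its share was 35.9% ± 1.08 (n = 3) in siCont and 27.4% ± 1.25 in siBRDT cells of the BRDT experiment. In the TP63 experiment it was 38.9% ± 0.31 (n = 2) in siCont and 54.5% ± 1.39 in siTP63 cells. In KYSE150, NOTCH3 made up 22.4% ± 4.74 (n = 3) of the control and 5.88% ± 1.11 of the BRDT-OE receptor reads, and NOTCH2 54.9% ± 5.89 and 69.9% ± 1.45. In each of these pairs the NOTCH3 shares of single libraries did not overlap. These shares are a description without a test, and they carry the same uncertainty of NOTCH2 as above.

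**Figure D3:**
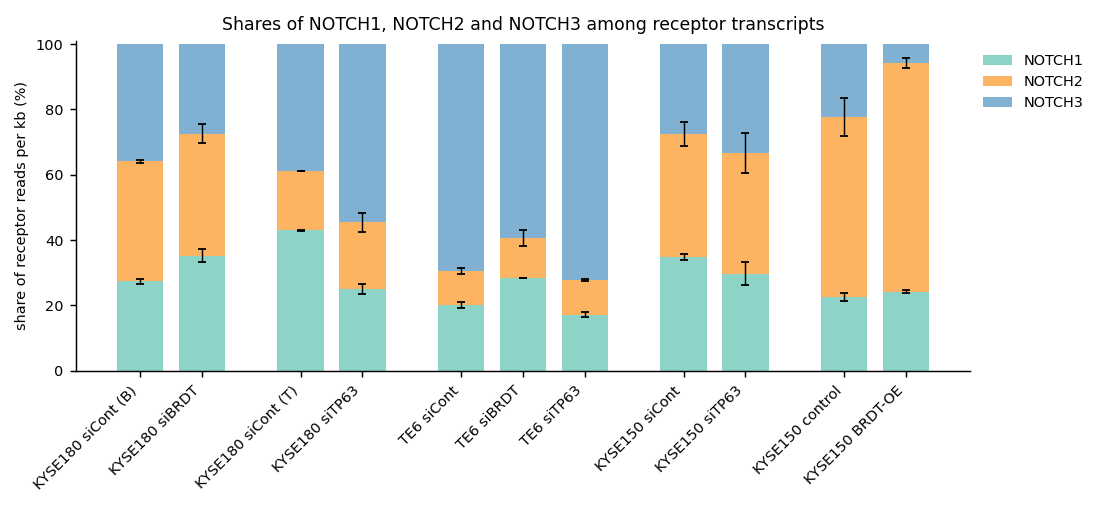
Share of NOTCH1, NOTCH2 and NOTCH3 in the receptor reads per kb (y axis, %) by group; bars stack group means, and the error bars are SDs over 2 or 3 libraries of the NOTCH1 share (lower) and the NOTCH2 share (upper). (B) and (T) mark the KYSE180 controls of the BRDT and of the TP63 experiment. NOTCH3 takes 69.3% in TE6 siCont and 5.88% in KYSE150 BRDT-OE cells.

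Among the ligands, JAG2 (chr14:105140982-105168824, minus strand), a Jagged ligand of basal epithelial cells, fell in 3 comparisons. In KYSE180, its normalised values were 5386 and 4247 in siCont and 2141 and 1936 in siTP63 libraries. Both siTP63 libraries lay far below both controls. The log2 fold change was -1.23 ± 0.15 (adjusted p = 1.50e-07). In RPM the fall was smaller, from 311 and 256 in siCont to 177 and 169 in siTP63 libraries. In TE6, JAG2 values were 2615 and 2389 in siCont, 1683 and 1942 in siBRDT, and 1167 and 1312 in siTP63 libraries. The 3 groups did not overlap, and siTP63 was the lowest. JAG2 fell by 1.01 ± 0.11 after siTP63 (adjusted p = 1.23e-05), whereas the siBRDT value of -0.47 ± 0.11 passed the adjusted p (4.22e-03) but not the fold-change limit. It passed both after each library's dependence on transcript length and GC was taken out by a fitted curve (length and GC trend removed, -0.54) and without the second siCont (-0.53) or the second siBRDT library (-0.57).

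In BRDT-OE cells, JAG2 was 1449, 1215 and 1325 in control and 896, 805 and 780 in BRDT-OE libraries. All BRDT-OE libraries lay below all controls. The change was, on the log2 scale, -0.68 ± 0.09 (adjusted p = 1.45e-04). In KYSE150 siTP63 cells it was -0.08 ± 0.21, with a 95% interval of -0.59 to 0.44.

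JAG1 (chr20:10637684-10673999, minus strand), the other Jagged ligand, was called only in TE6. Values were 599 and 631 in siCont, 400 and 377 in siBRDT, and 303 and 374 in siTP63 libraries. Each knockdown library was below both controls. The log2 fold changes were -0.66 ± 0.13 after siBRDT (adjusted p = 1.59e-03) and -0.87 ± 0.13 after siTP63 (adjusted p = 1.83e-04). With the length and GC trend removed, the siBRDT value was -0.49 and no longer passed the fold-change limit. In KYSE180 siTP63 cells JAG1 had 506 and 434 in siCont and 574 and 705 in siTP63 libraries, and the value of 0.44 ± 0.15 (adjusted p = 0.0163) was under that limit with limma but passed it with edgeR (0.50), with equal upper quartiles (0.51) and without the first siCont (0.55) or the first siTP63 library (0.59). In RPM, JAG1 was 29.3 and 26.2 in those siCont and 47.6 and 61.5 in those siTP63 libraries. JAG1 accounted for 8.71% ± 0.47 (SD, n = 2) of the Jagged reads per length in those siCont and for 23.4% ± 3.86 in those siTP63 cells. In TE6 its share was 19.3% ± 1.59 in siCont, 17.3% ± 2.04 in siBRDT and 20.9% ± 1.09 in siTP63 cells, and each knockdown overlapped with the controls.

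DLL1 (chr6:170282206-170306565, minus strand), a Delta-like ligand, fell in 1 comparison. In KYSE180 its values were 268, 245 and 259 in siCont and 149, 175 and 182 in siBRDT libraries. The groups were clearly apart. The log2 fold change of DLL1 was -0.61 ± 0.10 (adjusted p = 1.36e-04). After siTP63 in KYSE180 the value was 0.20 ± 0.16 and was not called. In RPM, however, both of those siTP63 libraries (26.8 and 29.6) lay above both controls (18.8 and 15.4), which was not tested. In KYSE150, DLL1 was 125 and 160 in siCont and 83.1 and 83.8 in siTP63 libraries. It was the single Notch gene with an unadjusted p under 0.05 there, and its log2 fold change of -0.75 ± 0.26 was not called (limma, adjusted p = 0.233). It passed with the replicate numbers crossed as a block (adjusted p = 0.00187), a pairing added after the data were seen, from which no conclusion is drawn. In BRDT-OE cells the value was -0.36 ± 0.11 (adjusted p = 0.0221), under the fold-change limit. The span of DLL1 overlaps that of FAM120B on the opposite strand, and whether their exons overlap was not examined. With no statement on strand in the counting, reads from any shared sequence cannot be told apart.

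DNER (chr2:229357629-229714555, minus strand), a neuronal EGF-like protein described as a noncanonical Notch ligand, had the largest change of the 9 genes. In KYSE150 it was 35.2, 34.9 and 43.8 in control and 218, 236 and 176 in BRDT-OE libraries. Every BRDT-OE library lay far above every control. DNER rose by 2.43 ± 0.16 on the log2 scale (adjusted p = 4.21e-06). In KYSE150 siTP63 cells it was 38.6 and 73.0 in siCont and 53.2 and 58.6 in siTP63 libraries, so that the controls enclosed the treated values (0.07 ± 0.39). In KYSE180 and TE6 it had 0 to 8 reads per library.

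HES1 (chr3:194136148-194138732, plus strand), a repressor and the best known direct Notch target, was called in 4 comparisons, down in 2 and up in 2. In KYSE180, HES1 values were 760, 723 and 746 in siCont and 493, 453 and 381 in siBRDT libraries. All siBRDT libraries lay below the controls. The log2 fold change was -0.75 ± 0.09 (adjusted p = 4.65e-06). In TE6, HES1 values were 206 and 183 in siCont, 356 and 309 in siBRDT, and 294 and 321 in siTP63 libraries. Here all 4 knockdown libraries lay above both controls. HES1 rose by 0.77 ± 0.14 after siBRDT (adjusted p = 8.69e-04) and by 0.66 ± 0.14 after siTP63 (adjusted p = 2.00e-03), again against the same controls. With the length and GC trend removed these TE6 values were 0.39 and 0.40 (adjusted p = 0.0417 and 0.0309), under the fold-change limit and in the same direction.

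In KYSE180 siTP63 cells, HES1 was 1051 and 1038 in siCont and 851 and 716 in siTP63 libraries. Both were below the controls, and the value of -0.42 ± 0.14 (adjusted p = 0.0143) was under the fold-change limit. With that trend removed it was -0.05 (adjusted p = 0.746). In RPM the HES1 groups overlapped (60.7 and 62.7 in siCont, 70.4 and 62.4 in siTP63), and neither siTP63 library lay below both controls. The direction of this change thus depends on the scale. In BRDT-OE cells, HES1 was 730, 673 and 624 in control and 301, 263 and 290 in BRDT-OE libraries. The groups were far apart, and HES1 fell by 1.244 ± 0.09 (adjusted p = 7.47e-06). In KYSE150 siTP63 cells the 2 groups overlapped (423 and 299 against 302 and 487; 0.11 ± 0.32).

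HEY1 (chromosome 8, minus strand), another repressor of this family, fell in 4 of the 5 comparisons in which it was tested and rose in 0. In TE6, its values were 1771 and 1762 in siCont, 1220 and 1092 in siBRDT, and 1074 and 1043 in siTP63 libraries. All knockdown libraries lay well below the controls. HEY1 fell by 0.61 ± 0.10 after siBRDT (adjusted p = 4.22e-04) and by 0.74 ± 0.10 after siTP63 (adjusted p = 8.23e-05), in the opposite direction to HES1 in the same libraries. In KYSE180, HEY1 was 405, 307 and 311 in siCont and 246, 255 and 206 in siBRDT libraries. The groups did not overlap, and the first control stood above the others. The log2 fold change of HEY1 was -0.53 ± 0.12 (adjusted p = 1.38e-03), and it was smaller than the fold-change limit without the first siCont library (-0.40) or without the third siBRDT library (-0.43). With the length and GC trend removed, the siBRDT values were -0.49 in KYSE180 and -0.47 in TE6, also under the limit.

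In KYSE180 siTP63 cells, HEY1 was lower by a similar size but with more spread (89.7 and 124 in siCont, 71.3 and 83.4 in siTP63), and -0.45 ± 0.22 was not called (adjusted p = 0.0854). It passed with the length and GC trend removed (-0.57), and without the first siCont library the value was -0.68. In RPM the HEY1 groups overlapped (5.18 and 7.50 in siCont, 5.91 and 7.27 in siTP63). In BRDT-OE cells, HEY1 was 31.6, 33.0 and 32.9 in control and 17.2, 17.8 and 8.44 in BRDT-OE libraries. These values rest on 6 to 35 reads per library. The change was, on the log2 scale, -1.18 ± 0.30 (adjusted p = 7.89e-03). In the KYSE150 TP63 experiment it had 4 to 12 reads per library.

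The fold changes of KYSE180 and TE6 cells were then compared directly, as the difference of both fold changes in 1 limma fit with no fold-change limit. After siBRDT, 6 of 8 Notch genes differed between the lines, where 41.9% of all genes did. HES1 differed most (-0.75 in KYSE180 and 0.77 in TE6; difference -1.53 ± 0.16, adjusted p = 2.08e-06). All 3 receptors had a lower fold change in TE6 than in KYSE180 (differences 0.67 to 0.69), and so had JAG1 (0.48) and JAG2 (0.33). The adjusted p of JAG2 (0.0422) rose over 0.05 in 9 alternatives. The JAG1 difference was not called with equal upper quartiles (0.38, adjusted p = 0.0617). NOTCH2, JAG1 and JAG2 were no longer called without the second TE6 siCont library, which left 3 genes, and NOTCH2 not without the second TE6 siBRDT library (0.52). DLL1 and HEY1 were not called different, with 95% intervals of -0.69 to 0.05 and -0.27 to 0.44.

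After siTP63, 5 of 8 differed, where 55.0% of all genes did. NOTCH3 differed by 1.71 ± 0.20 (adjusted p = 1.70e-06), NOTCH2 by 1.44 ± 0.25 and JAG1 by 1.31 ± 0.21. Of these, NOTCH3 and NOTCH2 were called in KYSE180 alone (up) and JAG1 in TE6 alone (down). NOTCH1 differed by 0.72 ± 0.21 and HES1 by -1.08 ± 0.20, and the NOTCH1 difference was not called without the first TE6 siCont (0.59) or the first TE6 siTP63 library (0.56). JAG2, with falls of 1.23 and 1.01, was not called different (95% interval of the difference -0.60 to 0.17), and neither were DLL1 (-0.47 to 0.47) and HEY1 (-0.16 to 0.74). JAG2 was called down in both lines after siTP63, whereas HEY1, with -0.45 and -0.74, was called in TE6 and missed the threshold in KYSE180.

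**Figure D4:**
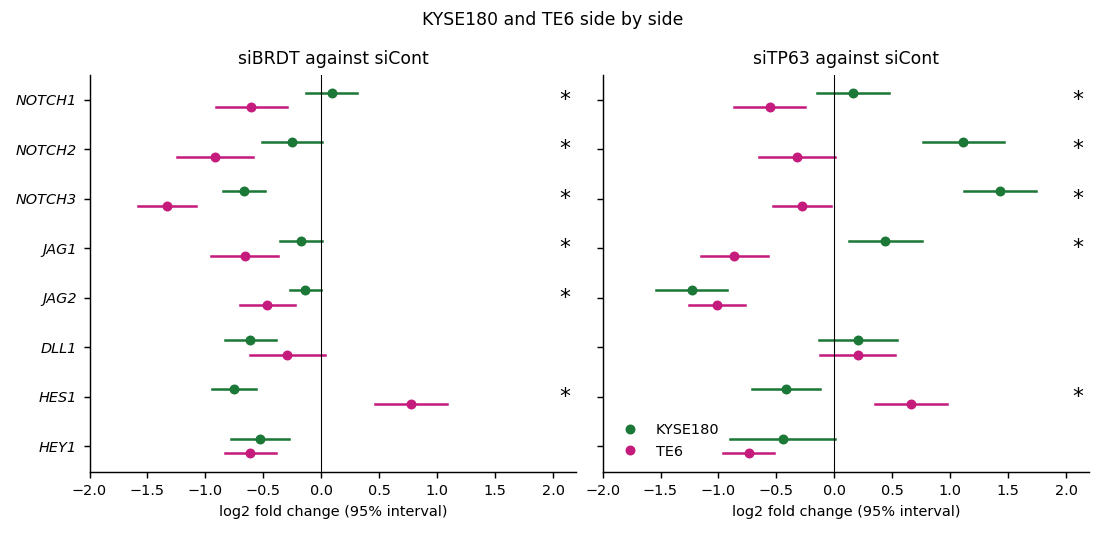
Log2 fold change with 95% interval of 8 Notch genes in KYSE180 (green) and TE6 (magenta) after siBRDT (left) and siTP63 (right); asterisks mark genes whose fold changes differed between the lines. HES1 lies on opposite sides of 0 in both panels, and JAG2 lies below 0 in both lines. The HES1 value of KYSE180 after siTP63 was not called, and in RPM it showed no fall.

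When KYSE150 was compared with the other lines after siTP63, 0 of 7 genes differed from KYSE180 and 0 of 7 from TE6 in limma, where 1.62% and 3.86% of all genes did. At an unadjusted p under 0.05, 26.4% and 23.6% of all genes passed. JAG2 had the lowest p of the 7 in both (difference -1.15 ± 0.26, adjusted p = 0.0670, and -0.93 ± 0.23, adjusted p = 0.0501). These counts rest on single KYSE150 libraries. Without the first siTP63 library of KYSE150, 2 and 1 genes differed, and without the second, 0 and 6 did. edgeR called 0 and 1.

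Within TE6, the siTP63 libraries were compared with the siBRDT libraries, a contrast in which the shared controls cancel. In this comparison 3 of 8 genes were called, where 28.4% of all genes were. NOTCH3 was higher after siTP63 than after siBRDT by 1.06 ± 0.11 (adjusted p = 2.24e-05) and NOTCH2 by 0.59 ± 0.15 (adjusted p = 8.05e-03), while JAG2 was lower by 0.55 ± 0.11 on the log2 scale (difference -0.55, adjusted p = 1.94e-03). NOTCH2 and JAG2 went under the fold-change limit without the second siBRDT library (0.45 and -0.44), NOTCH2 also without the second siTP63 (0.47) and JAG2 without the first (-0.46). NOTCH1, JAG1, HES1 and HEY1 were not called, with intervals that excluded differences beyond 0.50 in size. DLL1 reached 0.50 ± 0.15 (adjusted p = 0.0191), just under the limit.

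In order to place these genes in the pathway, 60 further Notch pathway genes were counted in the same fits, all of which were present in the tables. After siBRDT, 10 fell and 8 rose of 55 tested in KYSE180 (30.3% of all genes were called), and 14 fell and 8 rose of 52 in TE6 (33.7% of all genes). After siTP63, 11 fell and 17 rose of 56 in KYSE180 (49.3% of all genes), and 16 fell and 16 rose of 52 in TE6 (38.9% of all genes). In KYSE150 siTP63 cells limma called 0 of 47 (0.0% of all genes), and 8 had an unadjusted p under 0.05 (17.8% of all genes). In BRDT-OE cells, 12 fell and 5 rose of 50 (26.5% of all genes). The medians were between -0.07 and 0.07 in all 6 comparisons, against -0.04 to 0.02 over all genes.

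Among the other receptors and ligands, DLK2, a noncanonical ligand related to Delta, fell from 2084 ± 79.9 to 198 ± 22.1 (SD, n = 2 each) in KYSE180 siTP63 cells, on the log2 scale -3.40 ± 0.15 (adjusted p = 1.82e-15). It also fell in BRDT-OE cells (374 ± 33.1 to 134 ± 19.4, n = 3; -1.48). DLL3, an atypical Delta-like protein, rose by 0.89 after siBRDT and fell by 1.44 after siTP63 in KYSE180, 2 comparisons with separate controls. NOTCH4, the fourth receptor, was low (17.9 ± 3.57 in siCont) and fell by 2.41 in KYSE180 siTP63 cells. CNTN1, an adhesion protein that binds Notch, fell by 1.26 after siBRDT and 1.16 after siTP63 in TE6, against shared controls, and MFAP2, a matrix protein that binds Jagged ligands, rose by 1.04 in TE6 siTP63 cells.

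Of the glycosyltransferases that modify the receptor, LFNG rose most, from 26.4 ± 7.40 to 137 ± 12.6 (n = 3) in BRDT-OE cells (2.37 ± 0.22, adjusted p = 2.03e-05). The O-glucosyltransferase POGLUT1 (0.55) and the fringe MFNG (0.52) also rose there and the fringe RFNG fell (-0.76), while RFNG rose by 0.95 in TE6 siBRDT cells. MFNG dropped under the fold-change limit with edgeR (0.50) and with equal upper quartiles (0.48), without the second control (0.42) and without the third BRDT-OE library (0.48).

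Of the 9 proteases and protease subunits that process the receptor, 3 fell and 2 rose in KYSE180 siBRDT (30.3% of all genes were called). In TE6 siBRDT 4 fell and 1 rose (33.7% of all genes). In KYSE180 siTP63 0 fell and 5 rose (49.3% of all genes), and in TE6 siTP63 2 fell and 3 rose (38.9%). In BRDT-OE cells 1 fell and 0 rose (26.5% of all genes), and in KYSE150 siTP63 cells 0 were called (0.0%). Their median log2 fold change after siTP63 was 0.65 in KYSE180, 0.37 in TE6 and 0.53 in KYSE150. NCSTN, a gamma-secretase subunit, fell from 1400 ± 52.2 to 694 ± 43.4 (n = 3) in KYSE180 siBRDT cells (-1.01 ± 0.07, adjusted p = 1.77e-08) and rose from 695 ± 191 to 1870 ± 152 (n = 2) in KYSE180 siTP63 cells (1.45 ± 0.16, adjusted p = 3.53e-08). APH1B, another subunit, fell by 1.05 in KYSE180 siBRDT cells. ADAM17 fell by 1.13 and ADAM10 by 1.13 in TE6 siBRDT cells, whereas ADAM17 rose by 1.36 in KYSE180 siTP63 cells. PSENEN, the small gamma-secretase subunit, rose after siBRDT in KYSE180 (0.87) and TE6 (0.90), the latter reduced to 0.48 with the length and GC trend removed.

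Among the nuclear partners, KAT2B, an acetyltransferase, fell by 1.46 in KYSE180 siBRDT cells, and the Mastermind gene MAML2 fell by 1.29 in TE6 siBRDT and rose by 1.47 in KYSE180 siTP63 cells. MAML3 (1.14 in KYSE180 siTP63) was lost with DESeq2, with the length and GC trend removed (0.94) and without either siTP63 library (adjusted p = 0.214 and 0.150). EP300 (0.56 in BRDT-OE) was lost in 9 alternatives, among them edgeR (0.48), DESeq2 (0.50) and leaving out the third control (0.29). Of the corepressors, TLE2 rose by 1.03 and TLE1 by 0.98 in TE6 siTP63 cells, while in BRDT-OE cells TLE2 fell by 1.46 and TLE4 rose by 0.61 (0.50 without the third BRDT-OE library, under the limit).

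Of the ubiquitin ligases and trafficking genes, MIB1, which activates ligands, fell from 964 ± 119 to 301 ± 26.6 (n = 2) in TE6 siTP63 cells (-1.67 ± 0.28, adjusted p = 2.96e-04), as did its counterpart NEURL1B (-0.97). DTX3L, a Deltex ligase, rose by 1.23 in TE6 siBRDT and by 1.73 in KYSE180 siTP63 cells. FBXW7, which targets the Notch intracellular domain for degradation, fell by 1.17 in KYSE180 siBRDT cells, the Notch inhibitor NUMB fell by 0.80 in TE6 siBRDT cells, and DTX4 fell by 0.78 in BRDT-OE cells.

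Of the other HES, HEY and feedback genes, 1 fell and 3 rose of 6 tested in KYSE180 siBRDT (30.3% of all genes were called). In TE6 siBRDT 0 fell and 2 rose of 6 (33.7% of all genes). In KYSE180 siTP63 3 fell and 1 rose of 6 (49.3% of all genes), and in TE6 siTP63 2 fell and 3 rose of 6 (38.9%). In BRDT-OE cells 3 fell and 0 rose of 5 (26.5% of all genes). In KYSE150 siTP63 cells 0 of 5 were called (0.0% of all genes). HES6, an inhibitor of HES1, rose in KYSE180 siBRDT (112 ± 11.02 to 277 ± 42.6, n = 3; 1.30 ± 0.13, adjusted p = 6.54e-07), TE6 siBRDT (1.67) and TE6 siTP63 cells (1.59). HEYL rose by 1.06 in KYSE180 siBRDT and by 1.21 in TE6 siTP63 cells. HES7 rose by 1.18 in KYSE180 siBRDT cells and fell in TE6 siTP63 (-1.94), in BRDT-OE (-1.10) and in KYSE180 siTP63 cells (-1.18), the last of which was lost in 9 alternatives, with an adjusted p of up to 0.270. HES2 fell by 1.07 in KYSE180 siBRDT cells, and HES4 rose by 1.11 in TE6 siBRDT cells but by 0.13 (adjusted p = 0.404) with the length and GC trend removed. NRARP, a feedback inhibitor induced by Notch, fell from 1415 ± 27.0 to 521 ± 79.2 (n = 2) in KYSE180 siTP63 cells (-1.45 ± 0.15, adjusted p = 8.07e-09) and by 0.86 in TE6 siTP63 cells.

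**Figure D5:**
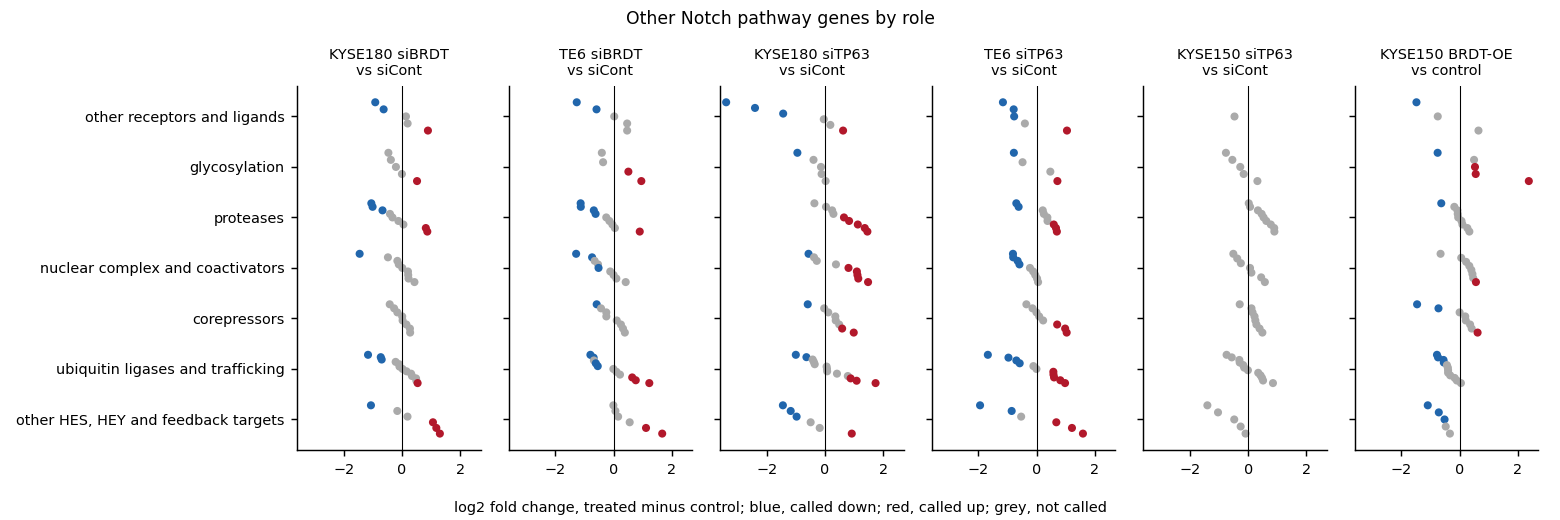
Log2 fold change (x axis, treated minus control) of the other Notch pathway genes that were tested, by role (y axis), in the 6 comparisons; each point is a gene, blue called down, red called up and grey not called. The proteases lie mostly right of 0 in the siTP63 comparisons of KYSE180, TE6 and KYSE150 (medians 0.65, 0.37 and 0.53). No point is coloured in KYSE150 siTP63, where 0.0% of all genes were called.

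The patterns of single genes over the 26 libraries, expressed as the log2 difference from the mean of the controls of the same table, were compared with those of 11337 genes with a mean of at least 10 in all 5 tables, which 7 of the 9 Notch genes fulfilled. NOTCH2 was most like BOD1L1 (Pearson r = 0.97) and RASAL2 (0.96), NOTCH3 most like SIDT2 and CBX7 (0.95 each), and NOTCH1 most like RGP1 (0.92) and ASXL2 (0.91). JAG1 was most like ATF7IP (0.93) and ZNF217 (0.92), JAG2 most like ZNF219 (0.94) and SRGAP3 (0.93), DLL1 most like ARHGEF40 (0.90) and TMCC2 (0.88), and HES1 most like ZNF524 (0.94) and PCBP4 (0.94). Between Notch genes the highest values were those of JAG1 with NOTCH2 (0.77) and with NOTCH1 (0.76), and the lowest was that of HES1 with NOTCH1 (-0.52). These correlations describe the libraries, which share controls, tables and depth, and carry no test.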

How the data were processed

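mRNA-seq of 26 libraries in 11 groups and 5 tables was used, with groups taken from the labels. Per the labels and the methods of the study, the authors prepared libraries with the TruSeq RNA library prep kit V2, mapped reads to hg38 with STAR 2.6.0, counted them per gene with HTSeq 0.11.2 and normalised them with DESeq2 1.24.0. The annotation and the strand option of the counting are not given in the sources used here. The deposited values are a normalised signal, namely counts divided by a size factor that the authors set in each table. In the KYSE180 TP63 experiment they summed to 17307938 and 16565108 in siCont and to 12077466 and 11475859 in siTP63 libraries. Fold changes of that experiment are therefore lower on this scale than in RPM. Whole reads were recovered from all values (100% within 0.01 of a whole number). Every column of the tables was used (0 were left out), except that the 9 genes, BRDT, TP63 and the lists alone are printed. Depth was 7582089 to 19372441 reads per library, and limits from counts cover counting error only.

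Tests used limma 3.58.1 (R 4.3.3; lmFit, and eBayes with a trend) on log2(value + 1), a scale that understates changes of genes with low values, for all genes with a mean of at least 10 over the libraries of a fit, with p-values adjusted by Benjamini-Hochberg over all genes tested. The 3 TE6 groups shared 1 fit. RPKM and shares used the longest transcript of each gene (GENCODE release 44, hg38). Alternatives were a pseudocount of 0.1, no filter, no fold-change limit, equal upper quartiles, count tests of the recovered reads (edgeR 4.0.16; DESeq2 1.42.0), the replicate number as a block, subtraction of a curve of 4 degrees of freedom on length and on GC per library, fits of 2 TE6 groups, and omission of single libraries. A crossed replicate block was added after the data were seen. Scripts were tested on simulated data. Same-numbered libraries did not deviate together in all pairs (r = 0.15, 0.00 and 0.18 in KYSE180 siBRDT, -0.70 in KYSE150 siTP63, and -0.09 to 0.10 elsewhere), so the numbers were not taken as pairs.

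The 9 genes, the pathway list and the marker lists were chosen with earlier results of these data known. The rule for named genes took the 9 genes in every comparison, BRDT and TP63 as a check of the labels, per comparison up to 5 called pathway genes with the largest change in each direction and no overlap of replicates, and for likeness the 2 genes with the highest Pearson correlation. Figures were drawn with matplotlib 3.10.9.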

Additional observations from a re-analysis of the deposited data

Results flagged for a closer look

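In 11 cases the fold change of a Notch gene after the same knockdown differed between KYSE180 and TE6 by the test of the difference itself (limma, adjusted p under 0.05). After siBRDT these were NOTCH1 (difference 0.69, KYSE180 minus TE6), NOTCH2 (0.67), NOTCH3 (0.67), JAG1 (0.48), JAG2 (0.33) and HES1 (-1.53). After siTP63 they were NOTCH1 (0.72), NOTCH2 (1.44), NOTCH3 (1.71), JAG1 (1.31) and HES1 (-1.08). Among all genes, 41.9% differed in this way after siBRDT and 55.0% after siTP63, so such a difference was common. The lines were handled in separate experiments and tables, and the line and the experiment cannot be told apart.

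Among these genes, HES1 alone was called in opposite directions in both lines after the same knockdown (siBRDT). With each library's length and GC trend removed it was -0.81 in KYSE180 and 0.39 in TE6 after siBRDT, and -0.05 and 0.40 after siTP63. Transcript length and GC content of HES1 are 1575 bases and 49.97%, and the 2 TE6 comparisons share their controls. The part of length and GC content in the HES1 difference after siTP63 was not tested in a fit of the difference.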

How the results depend on the processing

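Of 1299 alternative values for the 9 genes, 1196 kept their direction and their side of the threshold, 35 lost and 31 gained a call, and 37 changed sign, none of them a called result. Of 747 for the named pathway genes, 715 kept both and 32 lost the call. The count of called Notch genes in KYSE180 siTP63 was 5 in place of 3 with no fold-change limit and 3 to 5 without single libraries (5 without the first siCont or the first siTP63 library). In TE6 siBRDT the count of called Notch genes was 6, and 4 to 7 over the alternatives. With the length and GC trend removed, JAG1, HES1 and HEY1 lost and JAG2 gained a call there. Calls over all genes were then 3339 against 4493. The count of siBRDT differences between KYSE180 and TE6 was 3 to 6 without single libraries. The counts against KYSE150 were 0 to 2 (KYSE180) and 0 to 6 (TE6) without single libraries, and 1 with edgeR for TE6.

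NOTCH1 changed sign in KYSE180 siTP63 with the length and GC trend removed, with or without the block (-0.00027 each), in KYSE150 siTP63 likewise (-0.022 each), and in BRDT-OE with equal upper quartiles (-0.038), edgeR (-0.044) and DESeq2 (-0.031). So did DNER in KYSE150 siTP63 (edgeR -0.0056, DESeq2 -0.013), HES1 in TE6 siTP63 minus siBRDT (trend removed, with or without the block, 0.010 each), and the differences between KYSE180 and TE6 of HEY1 after siBRDT (upper quartiles -0.018) and DLL1 after siTP63 (edgeR 0.10). The cause was not tested. Without single libraries, NOTCH1 ranged from -0.013 to 0.22 in KYSE180 siBRDT, from -0.036 to 0.36 in KYSE180 siTP63, from -0.099 to 0.17 in KYSE150 siTP63, from -0.18 to 0.12 in BRDT-OE, from -0.10 to 0.20 in TE6 siTP63 minus siBRDT, and from -0.071 to 0.32 in KYSE180 minus KYSE150. In KYSE150 siTP63, NOTCH2 ranged from -0.0057 to 0.45, JAG1 from -0.097 to 0.69, JAG2 from -0.24 to 0.087, DNER from -0.38 to 0.52 and HES1 from -0.23 to 0.45. NOTCH2 ranged from -0.010 to 0.45 in BRDT-OE, JAG1 from -0.25 to 0.54 in KYSE180 minus KYSE150, and DLL1 from -0.18 to 0.17 in KYSE180 minus TE6 siTP63.

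With the replicate number as a block, the counts of called Notch genes were as without it (4, 6, 3, 5, 0 and 5 in the 6 comparisons), and 116 in place of 117 calls were made over the pathway list. In KYSE150 siTP63, where same-numbered libraries had r = -0.70, the crossed pairing called 2 Notch genes (NOTCH3 and DLL1) and 3400 genes in all. There, 0 genes of 12335 were called by limma, but 45 with no filter, 461 with DESeq2, 137 with the block, 576 with the trend removed and 143 with both, and 242 to 307 without single libraries. Calls over all genes were 7937 against 4115 (KYSE180 siBRDT) and 6521 against 3386 (BRDT-OE) with no fold-change limit, and 2993 against 4493 in TE6 siBRDT without the second siCont library. They were 2498 against 3784 in TE6 siTP63 minus siBRDT without the second siTP63 library. For the differences from KYSE150 they were 0 (block) and 0 to 2932 (single libraries left out) against 193 with KYSE180, and 61 and 64 to 3012 against 449 with TE6. Equal upper quartiles moved the median of all genes by 0.10 in TE6 siBRDT, and the share of calls that were down from 53.8% to 41.4%, and in KYSE180 minus TE6 siBRDT by -0.11 and from 46.3% to 58.5%. Removal of the trend was not run for differences between lines. With 2 or 3 libraries a group, a gene that was not called is not shown to be unchanged, and the low read numbers of DNER in KYSE180 and TE6 and of HEY1 in KYSE150 limit what can be detected.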
